A study of Mus musculus with 18 samples.

Results

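The comparison described here is between RAW 264.7 cells that received tert-butylhydroquinone (TBHQ) before lipopolysaccharide (LPS) and cells that received LPS alone. It covers 6 of the 18 sequenced samples, 3 per group, and 13691 of the 56748 genes deposited, those with enough counts to be tested. RAW 264.7 is an established mouse macrophage line. Per the study's methods, cells seeded in 6-well plates received 0.1 µg/mL LPS from E. coli O127:B8 for 12 h in the LPS group. In the LPS+TBHQ group, 5 µM TBHQ came first for 4 h and LPS followed for an additional 12 h. The methods do not state when the LPS group received LPS, so the groups may differ in time in culture, which was not tested. TBHQ was dissolved in DMSO, and no vehicle treatment is stated for the LPS group. Values from untreated control cells, from cells given TBHQ alone and harvested after 4 h, and from cells given the synthetic double-stranded RNA polyinosinic:polycytidylic acid (PIC, 20 µg/mL, 12 h) with or without the same TBHQ pretreatment stand beside the main values where named. Per the study, TBHQ alone was assessed at 4 h and its other treatments followed a 12 h design. The methods state no harvest time for control cells, so TBHQ alone and control may differ in time in culture, which was not tested. The study describes 3 biological replicates per group, but the labels do not say how separately the wells were grown, so the p-values measure only the spread between these samples.

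Sequencing was of poly(A)-selected RNA. The LPS libraries held 14423390, 14432272 and 14502107 assigned reads, and the LPS+TBHQ libraries 16624933, 16487653 and 17533571. At these depths 3 counts, taken as the floor in each library, correspond to 0.171 to 0.208 CPM (counts scaled to library size), which covers counting error alone. All 8 macrophage markers listed (Adgre1, Csf1r, Cd68, Itgam, Lyz2, Spi1, Mpeg1 and Fcgr1) were abundant enough to be tested. Their summed CPM were 8270.4, 8162 and 8369.6 in the LPS group and 9192, 9475 and 9245 in the LPS+TBHQ group, where Lyz2, the lysozyme gene, was the most abundant and weighs most in the sum. Of the markers 3 were called higher and 4 lower in the LPS+TBHQ group. None of the markers of T and NK cells (8 genes), B and plasma cells (6), mast cells and basophils (5), fibroblasts (6), endothelial cells (4) and epithelial cells (5) passed the count filter. Of the neutrophil markers 2 of 7 did, of the dendritic cell markers 1 of 6, and of the osteoclast genes 5 of 6, with cathepsin K (Ctsk) the most abundant at 178 FPKM. In bulk RNA, fewer cells of a kind and less RNA per cell cannot be told apart.

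LPS binds Toll-like receptor 4, which signals through MyD88 to NF-kB and AP-1 and through TRIF to IRF3 and type I interferon. Interferon then acts through its receptor and JAK kinases on the promoters of interferon-stimulated genes. TBHQ is oxidised to a quinone that modifies the adaptor KEAP1, so that the transcription factor NRF2 accumulates and binds antioxidant response elements.

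Of 13691 genes tested with edgeR's quasi-likelihood test, 3274 (23.9%) passed a Benjamini-Hochberg adjusted p below 0.05, 1601 of them higher (11.7% of genes tested) and 1673 lower (12.2%) in the LPS+TBHQ group. These percentages are the yardstick for each gene list below. Where a list count moved by over 1.5 times with another tool, scaling, filter, block or unit, the range of both counts over all these fits is in the brackets. The unit was FPKM in limma fits, and a call noted as lost on the FPKM scale was not made on log2(FPKM + 1) over all genes. The counts in both directions were alike, but the sizes were not. Among called genes, 209 were lower and 45 higher by more than 1 log2 unit, and 506 lower and 223 higher by more than 0.5. The median size was 0.31 for genes that were lower and 0.25 for genes that were higher. The median log2 fold change of all genes tested was 0.00, with the 1st percentile at -1.39 and the 99th at 0.91. Scaled to total library size, 2061 genes were higher and 1401 lower, a split of 59.5% to 40.5% in place of 48.9% higher. The 3 libraries of each group did not overlap for 1513 of the genes called higher and 1585 of those called lower, and for 2434 genes on the higher and 2464 on the lower side among all genes tested, called or not.

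Genes at both ends of the log2 fold changes are given first, among those with an adjusted p below 0.01, a mean of at least 50 counts and no overlap between the groups. Il1a, which encodes interleukin-1 alpha, had 15.9, 13.8 and 9.10 FPKM in the LPS libraries and 1.06, 0.701 and 0.924 in the LPS+TBHQ libraries, a log2 fold change of -3.85 (SE 0.29, adjusted p = 2.1e-19). Il1b, for interleukin-1 beta, had 53.3, 41.8 and 39.6 FPKM with LPS and 6.27, 5.90 and 4.75 with TBHQ before LPS (log2 fold change -3.00, SE 0.18, adjusted p = 8.0e-21). Control cells averaged 0.0513 and 0.0432 FPKM of Il1a and Il1b. Serpinb2, the gene of plasminogen activator inhibitor 2, had a log2 fold change of -3.54, Ccl22, a chemokine gene for CCR4-bearing T cells, -3.47, and Edn1, the endothelin-1 gene, -2.42. At the other end, Il36g, for the interleukin-1 family cytokine IL-36 gamma, had 0.769, 0.634 and 0.552 FPKM with LPS. With TBHQ before LPS it had 3.52, 4.57 and 2.90 (log2 fold change 2.48, adjusted p = 4.0e-10), and its mean in control cells was 0. Serpinb1b, a serine protease inhibitor gene, had 1.52, Cacng8, for a calcium channel subunit, 1.43 and Calr3, for a calreticulin relative, 1.40. Ptpn14, for a tyrosine phosphatase, Nrp1, for the semaphorin and VEGF co-receptor neuropilin-1, and Prkar2b, for a regulatory subunit of protein kinase A, had log2 fold changes of 1.30, 1.23 and 1.19. The level of Calr3 was 3.40 and that of Cacng8 3.50 FPKM in the LPS+TBHQ group.

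**Figure D1:**
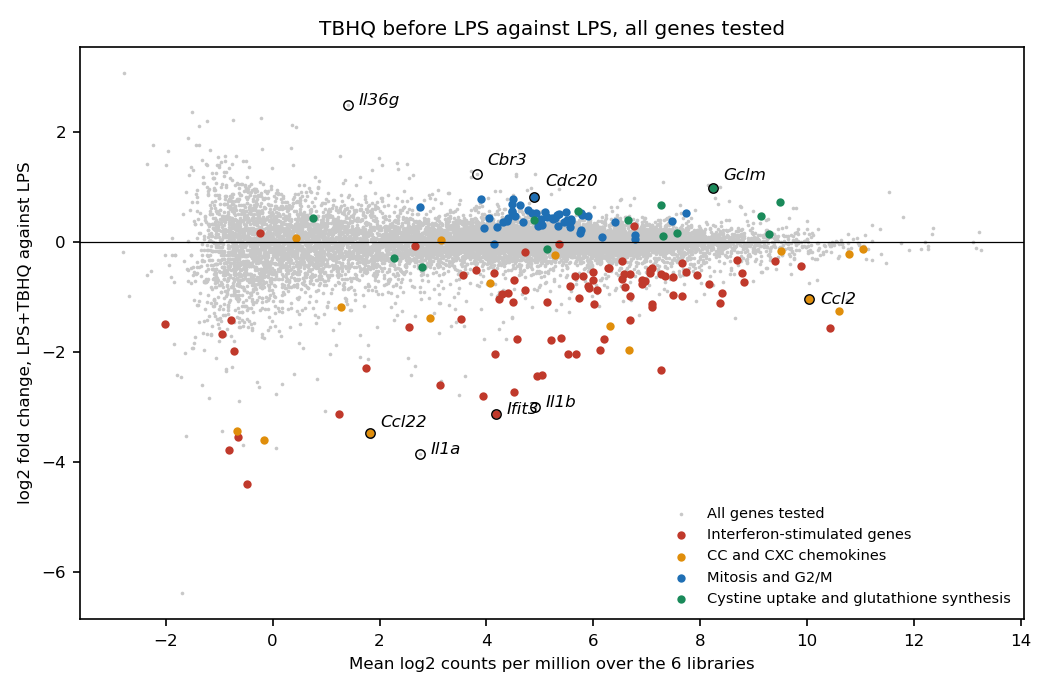
Log2 fold change of the LPS+TBHQ group against the LPS group over mean log2 CPM for 13691 genes, each point a gene, with members of 4 lists in colour and the genes written in italics ringed. Interferon-stimulated genes and chemokines lie mostly below 0, and mitotic and glutathione synthesis genes mostly above.

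Interferon-stimulated genes made up the list with the most members lower. Of 85 tested, 79 fell, 1 rose and 5 did not pass the test, and the median log2 fold change was -0.87. Ifit3, whose product restrains viral RNA translation, had 32.98, 29.8 and 30.1 FPKM in the LPS libraries and 4.18, 2.69 and 3.79 in the LPS+TBHQ libraries (log2 fold change -3.12, SE 0.19, adjusted p = 1.5e-21). Rsad2, the gene of the antiviral enzyme viperin, went from 85.9, 80.8 and 74.6 to 16.2, 15.6 and 16.3 FPKM (log2 fold change -2.33, SE 0.06, adjusted p = 9.6e-26). The groups did not overlap for either gene. Control cells had 9.82, 8.62 and 7.12 FPKM of Ifit3 and 23.6, 18.7 and 20.3 of Rsad2, so the LPS+TBHQ libraries lay below all control libraries for both. Guanylate-binding protein genes of antimicrobial defence were among the largest drops, with log2 fold changes of -3.13 for Gbp5, -2.80 for Gbp2 and -2.44 for Gbp3. Isg20, for an RNA exonuclease, had -2.72 and Oasl2, of the oligoadenylate synthetase family, -2.41. Slfn4 went from a mean of 605 to 204 FPKM (-1.57), the ubiquitin-like modifier gene Isg15 from 295 to 129.7 (-1.19), Bst2, for the virion tether tetherin, from 649 to 391 (-0.73), and Ifitm3, for a block to viral entry, from 1645 to 1211 (-0.44). Ifi27 was the member that rose, at a log2 fold change of 0.28. Against control cells, in a comparison that shares the LPS+TBHQ libraries, 54 of the 85 members were lower and 12 higher in the LPS+TBHQ group, where 22.5% of all genes were lower and 21.2% higher. After 4 h of TBHQ alone, in libraries that neither LPS group shares, 74 members were lower and 0 higher than in control cells, with a median log2 fold change of -0.56, against 14.8% and 14.2% of all genes. Ifit3 had -1.11 there and Oasl2 -1.50.

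Genes that carry the interferon signal had a smaller median change. In the list of type I interferons, receptors and signalling, 12 of 27 members fell and 2 rose (median log2 fold change -0.13, range 1 to 4 higher and 10 to 12 lower). Irf7, for the factor that amplifies interferon transcription, had 178, 164 and 177 FPKM with LPS and 65.1, 67.97 and 66.8 with TBHQ before LPS, no overlap, and a log2 fold change of -1.38 (SE 0.04, adjusted p = 6.4e-25). Its control libraries had 61.1, 62.5 and 57.1 FPKM. Stat2, for a signal transducer that binds interferon-responsive promoters, fell by -0.80 log2 units. Socs3, a feedback inhibitor gene of cytokine receptors, fell from a mean of 43.8 to 24.3 FPKM (-0.85). The list of class I antigen presentation and the immunoproteasome had 19 of 24 members lower and 0 higher (median -0.52, range 0 to 1 higher and 16 to 19 lower). B2m, the shared light chain of class I molecules, was at 1199, 1233 and 1144 FPKM in the LPS libraries and 776, 812 and 790.4 in the LPS+TBHQ libraries, which did not overlap (log2 fold change -0.59, adjusted p = 8.4e-16). Psmb9, an immunoproteasome subunit gene, had -0.95, the peptide transporter gene Tap1 -0.81, and the class I gene H2-T22 -0.89.

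Class II and costimulation genes fell in 12 of 16 cases and rose in 0, with a median log2 fold change of -0.40. Cd40, for the receptor of T cell CD40 ligand, had 12.7, 13.003 and 12.95 FPKM with LPS and 5.21, 6.03 and 5.86 with TBHQ before LPS, against 2.41, 2.70 and 2.76 in control cells, and the LPS groups did not overlap (log2 fold change -1.18, adjusted p = 5.8e-16). Cd80 and Cd86, for the ligands of CD28, had log2 fold changes of -0.79 and -0.70, and the maturation marker Cd83 had -0.87. Cd74, for the invariant chain of class II, and Ctss, for the protease that processes it, were abundant and fell by -0.40 and -0.40.

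CC and CXC chemokines had the lowest median of the lists. Of 16 tested, 14 fell and 0 rose, with a median log2 fold change of -1.11. Ccl5, for the T cell and monocyte attractant RANTES, had 218, 203 and 211 FPKM in LPS libraries and 49.3, 57.7 and 55.6 in LPS+TBHQ libraries (log2 fold change -1.96, SE 0.07, adjusted p = 3.3e-24). Ccl7, for a monocyte attractant, had 167, 173 and 167 and 64.3, 58.7 and 54.1 FPKM (log2 fold change -1.52, adjusted p = 1.4e-20). Neither gene overlapped between groups, and both stayed far above the control means of 5.80 and 5.17 FPKM. Cxcl10, for an interferon-inducible attractant of CXCR3-bearing cells, had -1.39, at means of 5.52 with LPS and 2.11 FPKM with TBHQ before LPS. Among cytokines and growth factors, 19 of 31 members fell and 3 rose (median -0.35). Lif, for leukaemia inhibitory factor, went from a mean of 7.51 to 2.53 FPKM (-1.57). The tumour necrosis factor gene Tnf had a log2 fold change of -0.24, and Csf3, for granulocyte colony-stimulating factor, -0.31 at means of 898 and 725 FPKM. The Csf3 call was lost with DESeq2 and with each FPKM fit. Spp1, the osteopontin gene and the most abundant of the list, had -0.14. Tgfb1, for transforming growth factor beta 1, and Mif, for macrophage migration inhibitory factor, rose by 0.24 and 0.16. The calls of Spp1 and Mif were lost on the FPKM scale.

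Chemokine receptor genes were 3 of 15 lower and 2 higher (median -0.17, range 1 to 2 higher and 3 lower). Ccrl2, for a receptor that presents chemerin, had a log2 fold change of -1.22, the complement receptor gene C3ar1 -0.61 and Cxcr3 0.57. In the list of NF-kB subunits, inhibitors and IKK, 19 of 30 members fell and 2 rose (median -0.21, range 1 to 4 higher and 16 to 19 lower). Traf1, for an adaptor of TNF receptors, had -0.84, Nfkbiz, for the nuclear cofactor IkB-zeta, -0.54, Tnfaip3, for the deubiquitinase A20 that restrains NF-kB, -0.53, and Nfkbia, for IkB-alpha, -0.37. Nfkb1, for the p105 precursor of p50, had -0.25, and Nfkbid, for another nuclear IkB protein, rose by 0.20. For the sensing and signalling genes of Toll-like receptors the counts were 11 lower and 2 higher of 33 (median -0.08), with Tlr3, for the receptor of double-stranded RNA, at -0.57, the kinase gene Irak2 at -0.39 and Tlr13, for a receptor of bacterial ribosomal RNA, at 0.43. AP-1, Egr and immediate early genes fell in 19 of 33 cases and rose in 1 (median -0.41). The zinc finger factor gene Egr1 had 18.1, 15.4 and 15.1 FPKM with LPS and 7.11, 6.66 and 6.47 with TBHQ before LPS, no overlap, and a log2 fold change of -1.26 (adjusted p = 3.4e-17). Zfp36, for the mRNA-destabilising protein tristetraprolin, had -0.72, the MAP kinase phosphatase gene Dusp1 -0.65, and the abundant Ier3 and Atf3 -0.58 and -0.58. The member that rose was Zfp36l2, a relative of Zfp36, at 0.76.

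**Figure D2:**
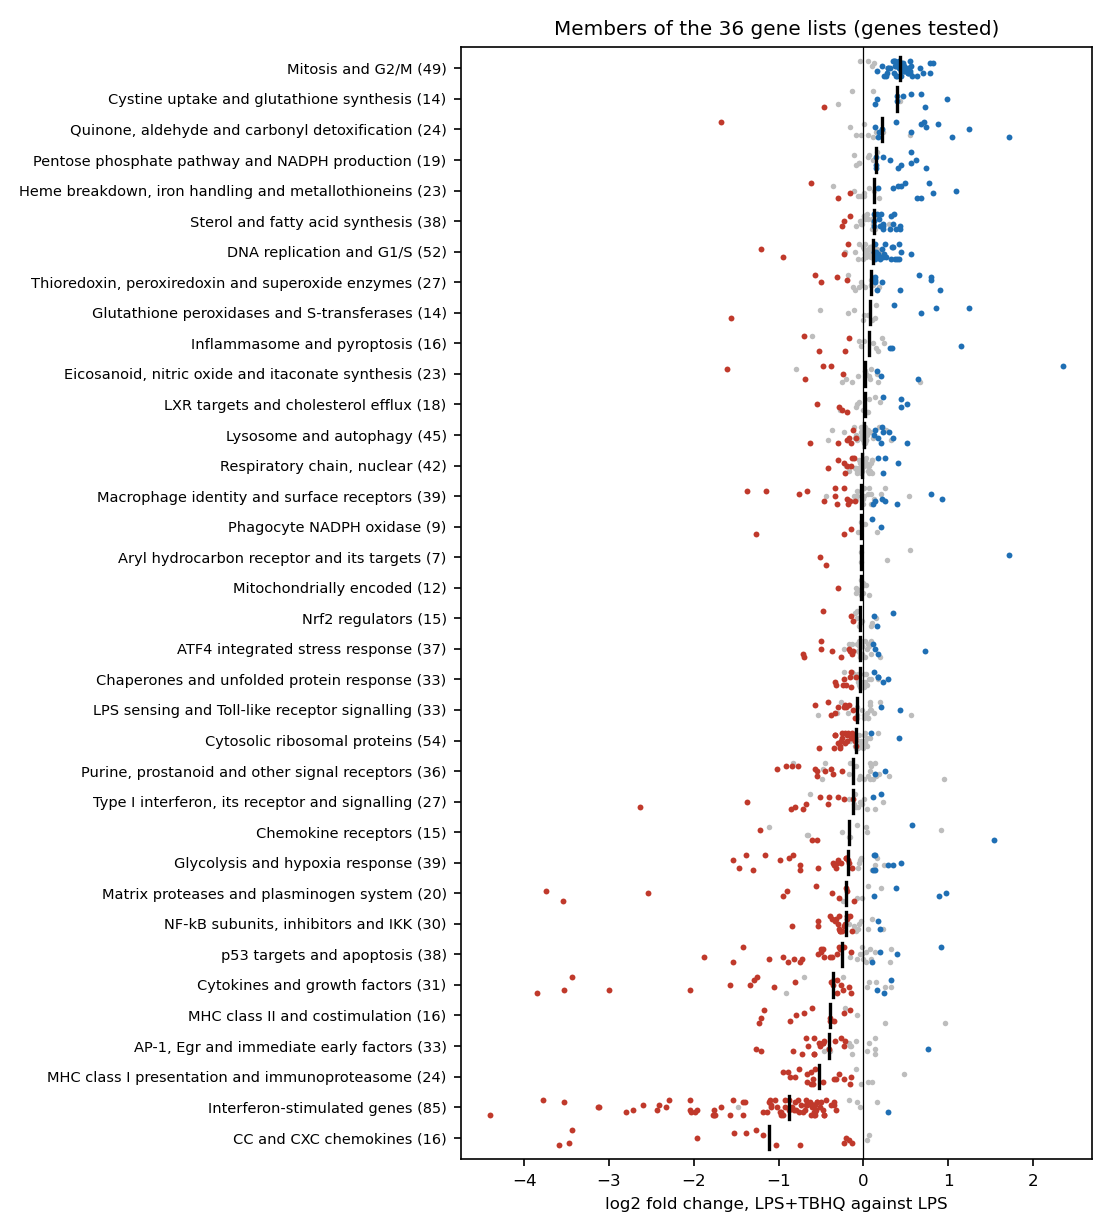
Log2 fold change of the LPS+TBHQ group against the LPS group for each tested member (points) of 36 gene lists, with the list median as a black bar, blue for called higher, red for called lower and grey for not called. The medians run from -1.11 for chemokines to 0.44 for mitosis.

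Genes of cystine uptake and glutathione synthesis rose in 9 of 14 cases and fell in 1, with a median log2 fold change of 0.39. Gclm, for the modifier subunit of the enzyme that makes gamma-glutamylcysteine, had 34.2, 33.8 and 35.1 FPKM in the LPS libraries and 66.1, 67.6 and 70.3 in the LPS+TBHQ libraries, against 17.6, 17.6 and 18.6 in control cells (log2 fold change 0.98, SE 0.03, adjusted p = 1.6e-21). Slc7a11, the cystine importer gene, had 41.3, 42.04 and 39.4 and 68.8, 66.8 and 67.3 FPKM (log2 fold change 0.72, adjusted p = 3.7e-18). Both genes were without overlap. Gsr, for glutathione reductase, rose by 0.67 and Gclc, for the catalytic partner of Gclm, by 0.39. Glutathione peroxidases and S-transferases had 4 of 14 members higher and 1 lower (median 0.08, range 2 to 4 higher and 0 to 1 lower). The microsomal transferase gene Mgst2 had 1.24, going from a mean of 5.31 to 12.6 FPKM, and Gstm1 0.85. The peroxidase genes Gpx1 and Gpx4 did not pass the test, at 0.00 and 0.06. Among thioredoxins, peroxiredoxins and superoxide enzymes, 10 of 27 rose and 4 fell (median 0.10). Prdx1, for a peroxiredoxin that reduces hydrogen peroxide, was at 737, 733 and 693 FPKM with LPS and 1342, 1337 and 1371 with TBHQ before LPS (log2 fold change 0.90, SE 0.03, adjusted p = 9.5e-23), with no overlap. Catalase (Cat), sulfiredoxin (Srxn1) and thioredoxin reductase (Txnrd1) transcripts rose by 0.80, 0.66 and 0.44, and glutaredoxin (Glrx) fell by -0.57.

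Quinone, aldehyde and carbonyl detoxification genes were higher in 13 of 24 cases and lower in 1 (median 0.22, range 12 to 14 higher and 0 to 1 lower). Cbr3, a carbonyl reductase gene, had 7.46, 7.39 and 7.14 FPKM with LPS, 16.8, 16.4 and 18.9 with TBHQ before LPS and 7.79, 7.64 and 6.18 in control cells (log2 fold change 1.24, SE 0.07, adjusted p = 3.4e-12). The aldo-keto reductase gene Akr1b8 rose by 1.04, Ptgr1, for a prostaglandin reductase that also acts on reactive aldehydes, by 0.88 and the esterase gene Esd by 0.39. Nqo1, for NAD(P)H quinone dehydrogenase, was near the limit of detection, with 6, 5 and 18 counts in the LPS libraries and 29, 40 and 45 in the LPS+TBHQ libraries (log2 fold change 1.71, adjusted p = 5.9e-04, and 2.51 without LPS replicate 3). Heme, iron and metallothionein genes rose in 10 of 23 cases and fell in 3 (median 0.13, range 8 to 11 higher and 3 to 5 lower). Blvrb, for biliverdin reductase B, had 40.1, 37.4 and 40.7 and 81.05, 81.8 and 88.5 FPKM, no overlap, and a log2 fold change of 1.09 (adjusted p = 2.1e-20). Hmox1, for the heme oxygenase that makes biliverdin, moved the other way. It had 1024, 948 and 967 FPKM with LPS and 785, 784 and 826 with TBHQ before LPS, no overlap, a log2 fold change of -0.30 (adjusted p = 2.0e-08), while 4 h of TBHQ alone against control gave 2.09. Slc48a1, for a lysosomal heme transporter, rose by 0.67, the ferritin chain genes Ftl1 and Fth1 by 0.45 and 0.18 (Fth1 lost on the FPKM scale), and Lcn2, for the siderophore-binding lipocalin 2, fell by -0.61.

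The pentose phosphate pathway and NADPH production list had 11 of 19 members higher and 0 lower (median 0.15). Taldo1, for transaldolase, had 129, 129.5 and 141 FPKM in LPS libraries and 221, 218 and 227 in LPS+TBHQ libraries without overlap (log2 fold change 0.74, adjusted p = 1.9e-17). Pgd and G6pdx, for the NADPH-forming steps, rose by 0.62 and 0.41, and the transketolase gene Tkt by 0.56. Of 15 regulators of NRF2, 3 were higher and 3 lower (median -0.04, range 2 to 5 higher and 1 to 4 lower), and 5 and 2 when scaled to total library size. Bach1, for a repressor at antioxidant response elements, had 0.35, Maff, for a small MAF partner, -0.47, and Sqstm1, for the autophagy receptor p62 that binds KEAP1, -0.12 (lost on the FPKM scale). Keap1 itself did not pass the test at -0.02. With TBHQ alone at 4 h, Gclm was at 1.82, Slc7a11 at 1.80, Srxn1 at 1.57, Gclc at 1.41 and Txnrd1 at 1.30 against control. These are set beside the LPS values without a test of the difference, since the harvest times were not the same.

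**Figure D3:**
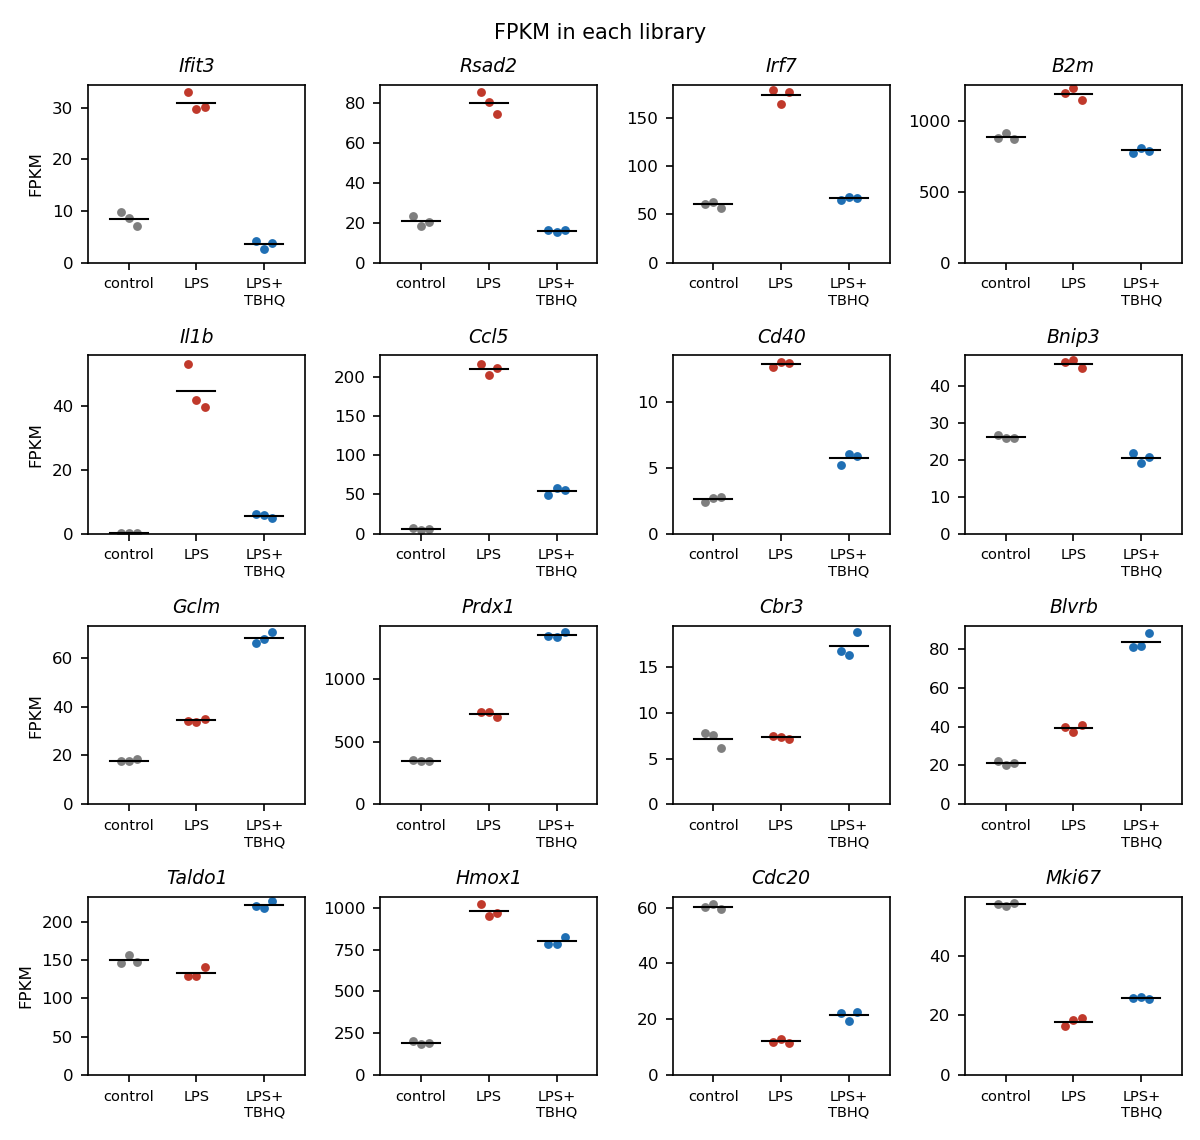
FPKM of 16 genes in each control, LPS and LPS+TBHQ library (points), with the group mean as a bar and every axis starting at 0. In each panel the LPS and LPS+TBHQ points do not overlap.

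Mitosis and G2/M genes rose almost throughout. Of 49 tested, 45 rose, 0 fell and 4 did not pass the test, with a median log2 fold change of 0.44. Cdc20, for an activator of the anaphase-promoting complex, had 11.8, 12.9 and 11.5 FPKM with LPS and 22.2, 19.2 and 22.6 with TBHQ before LPS, against 60.1, 61.4 and 59.5 in control cells (log2 fold change 0.82, SE 0.09, adjusted p = 2.1e-12). Mki67, for the proliferation antigen Ki-67, had 16.4, 18.3 and 19.04 and 25.9, 26.2 and 25.3 FPKM, against 57.3, 56.5 and 57.7 in control cells (log2 fold change 0.53, adjusted p = 8.3e-12). The LPS and LPS+TBHQ libraries did not overlap for either gene. The mitotic kinase gene Plk1 had 0.79 and the spindle pole gene Aspm 0.79. All 49 members were lower in the LPS+TBHQ group than in control cells, where 22.5% of all genes were. With TBHQ alone, 7 members were higher and 1 lower, at a median of 0.04, where 14.2% and 14.8% of all genes were, so this list did not stand out as higher there. DNA replication and G1/S genes rose in 23 of 52 cases and fell in 4 (median 0.11). The flap endonuclease gene Fen1 had 0.56, cyclin D1 (Ccnd1) 0.44, and Pcna, for the polymerase clamp, did not pass the test at -0.01. Cdkn1a, for the cyclin-dependent kinase inhibitor p21, had 109, 101 and 107 FPKM with LPS and 56.3, 53.1 and 55.4 with TBHQ before LPS, no overlap, and a log2 fold change of -0.95 (adjusted p = 2.5e-19). It also belongs to the list of p53 targets and apoptosis genes, where 21 of 38 fell and 4 rose (median -0.25, range 2 to 5 higher and 20 to 21 lower). The death receptor gene Eda2r had -1.88, Phlda3, for an AKT inhibitor, -1.54, Trp53inp1, for a p53-induced nuclear protein, -1.11, and Mcl1, for an anti-apoptotic BCL2 relative, -0.40.

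Glycolysis and hypoxia response genes fell in 22 of 39 cases and rose in 7 (median -0.18). Bnip3, for a mitophagy receptor induced by hypoxia, had 46.5, 47.01 and 44.9 FPKM with LPS, 21.8, 19.2 and 20.8 with TBHQ before LPS and 26.7, 25.8 and 25.9 in control cells (log2 fold change -1.16, SE 0.06, adjusted p = 1.8e-19). Ddit4, for the mTOR inhibitor REDD1, had -1.38, Pfkfb3, for the enzyme that makes the glycolytic activator fructose 2,6-bisphosphate, -0.98, and the hypoxia-induced Ndrg1 -0.88. The glycolytic enzyme genes of highest level changed little, with Pkm at 0.14 and Pgk1 not past the test at -0.05, and the glucose transporter gene Slc2a6 rose by 0.44. After TBHQ alone, 26 members were lower and 1 higher than in control cells (14.8% and 14.2% of all genes). Sterol and fatty acid synthesis genes rose in 17 of 38 cases and fell in 3 (median 0.12, range 11 to 20 higher and 1 to 3 lower), with the desaturase genes Scd1 and Fads2 at 0.43 and 0.43 and fatty acid synthase (Fasn) at 0.38. LXR targets and cholesterol efflux genes had 4 higher and 4 lower of 18 (median 0.02), where the lysosomal lipase gene Lipa rose by 0.51 and Npc2, for a cholesterol carrier, fell by -0.55.

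The nuclear-encoded respiratory chain list had 4 higher and 8 lower of 42 (median -0.02, range 3 to 6 higher and 3 to 9 lower), and 6 and 5 with a median of 0.00 under total library size scaling, with Cycs, for cytochrome c, at -0.30, the cytochrome c oxidase subunit gene Cox6c at -0.23 and the coactivator gene Ppargc1b at 0.40. Of 12 protein-coding genes of the mitochondrial genome 1 was called (median -0.03, range 0 to 1 higher and 0 to 1 lower), mt-Co3 at -0.30, a call lost with DESeq2 and with each FPKM fit. Its sequence is shared almost wholly with a nuclear copy, and its groups overlapped. The call was also lost in 4 of the 6 fits that left out a library, and the abundant mt-Co1 had -0.01. Of 10 mitochondrial tRNA genes tested 1 was higher and 2 lower. Cytosolic ribosomal protein genes fell in 23 of 54 cases and rose in 2, by small amounts (median -0.09, range 0 to 3 higher and 14 to 27 lower), with Rpl38 at -0.34 (lost on the FPKM scale). In the ATF4 stress response list 4 members rose and 10 of 37 fell (median -0.04, range 4 to 8 higher and 8 to 11 lower), but 8 rose and 8 fell with total library size scaling, with Atf4 at -0.26 and the stress-induced Nupr1 at -0.71. Chaperone and unfolded protein response genes had 5 higher and 9 lower of 33 (median -0.04, range 5 to 8 higher and 7 to 12 lower), and with total library size scaling 8 higher and 7 lower, so neither list leans to a side that holds under both. The endoplasmic reticulum chaperone gene Hspa5 had -0.15, its cochaperones Dnajb9 and Sdf2l1 -0.34 and 0.29.

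Macrophage identity and surface receptor genes moved both ways, with 14 of 39 lower and 7 higher (median -0.02, which was 0.00 when scaled to total library size). Fcgr1, for the high-affinity IgG receptor, had 14.9, 13.7 and 13.05 FPKM with LPS, 5.27, 5.84 and 5.08 with TBHQ before LPS and 13.8, 14.2 and 13.99 in control cells (log2 fold change -1.37, SE 0.08, adjusted p = 1.4e-15). The beta-glucan receptor gene Clec7a had -1.15 and the sialoadhesin gene Siglec1 -0.76. Trem2, for a lipid-sensing receptor, went the other way, from 16.4, 15.95 and 18.1 to 29.01, 28.7 and 30.2 FPKM without overlap (log2 fold change 0.80, adjusted p = 1.1e-15), against 52.1, 56.04 and 50.7 in control cells. Csf1r, for the receptor of macrophage colony-stimulating factor, had 0.39, the myeloid transcription factor gene Cebpa 0.92, and Lyz2 0.25 (lost on the FPKM scale). Lysosome and autophagy genes had 9 higher and 7 lower of 45 (median 0.00, range 9 to 10 higher and 4 to 8 lower), with the cathepsin D gene Ctsd at 0.30 and the proton pump subunit gene Atp6v0d2 at -0.62. Of the matrix protease and plasminogen list, 11 of 20 fell and 4 rose (median -0.20). Slpi, for the secretory leukocyte protease inhibitor, went from 25.6, 24.5 and 25.1 to 47.7, 49.4 and 50.1 FPKM (log2 fold change 0.97, adjusted p = 8.9e-15) and the macrophage elastase gene Mmp12 rose by 0.89, while Serpinb6b had -0.95 and the urokinase gene Plau -0.19 (lost on the FPKM scale). Among purine, prostanoid and other signal receptors 11 of 36 fell and 2 rose (median -0.12, range 1 to 3 higher and 9 to 12 lower), including the niacin receptor gene Hcar2 at -1.02, the adenosine receptor gene Adora2b at -0.92, Met, for the hepatocyte growth factor receptor, at -0.77 and the TNF receptor gene Tnfrsf1b at -0.35.

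Inflammasome and pyroptosis genes had 3 higher and 4 lower of 16 (median 0.06). The LPS-sensing caspase gene Casp4 had -0.70, its pore-forming target gene Gsdmd -0.52 and the sensor gene Nlrp3 -0.22, while Nlrp10 rose from a mean of 0.865 to 1.93 FPKM (1.15). In the list of eicosanoid, nitric oxide and itaconate synthesis 5 of 23 fell and 4 rose (median 0.02), where Odc1, for ornithine decarboxylase, and Gch1, for the first enzyme of tetrahydrobiopterin synthesis, fell by -0.38 and -0.24, and Alox5ap, for the activator of 5-lipoxygenase, rose by 0.64. NADPH oxidase subunits had 2 higher and 3 lower of 9 (median -0.02, which was 0.00 when scaled to total library size, range 1 to 2 higher and 2 to 3 lower), with the membrane subunit gene Cyba at -0.23. Of 7 genes of the aryl hydrocarbon receptor list, 1 rose and 2 fell (median -0.03, range 0 to 1 higher and 1 to 2 lower), with the receptor's target Tiparp at -0.51. By transcript class, 1557 of 11262 protein-coding genes rose and 1515 fell, and 16 of 1171 long noncoding RNA genes rose and 70 fell.

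The same TBHQ pretreatment before PIC shares no library with the LPS comparison. With PIC, 15.8% of genes tested were higher and 15.5% lower. Of the genes higher with LPS, 68.8% were also higher with PIC, which is 50.8% of the genes higher with PIC, and for lower genes the shares were 72.2% and 57.03%. Across genes, which are not independent replicates, Pearson's r between the log2 fold changes was 0.589 and Spearman's rho 0.557. The test of the difference itself called 251 genes (1.83%), where the change with LPS was the more positive for 138 and the more negative for 113. That count was 160 without LPS+TBHQ replicate 2, and lay between that value and 354 over the fits that each left out 1 library. Among interferon-stimulated genes 35 of 85 differed. With PIC, 80 of the 85 were lower and 0 higher, and the list median was -0.67. Of the 49 mitosis and G2/M genes, 35 were higher and 1 lower with PIC. Ifit3 had a log2 fold change of -1.80 with PIC, a difference of -1.32 (adjusted p = 6.0e-07), and Gbp2 had -1.51, a difference of -1.29 (adjusted p = 1.9e-06). Tnf was lower by more with PIC, at -0.83 (difference 0.58, adjusted p = 1.8e-08), and Mmp12 was called in opposite directions, at -0.50 with PIC (difference 1.39, adjusted p = 3.1e-06). Prdx1 and Slc7a11 had 0.66 and 0.41 with PIC, differences of 0.24 and 0.31, and Mki67 had 0.21, a difference of 0.32.

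**Figure D4:**
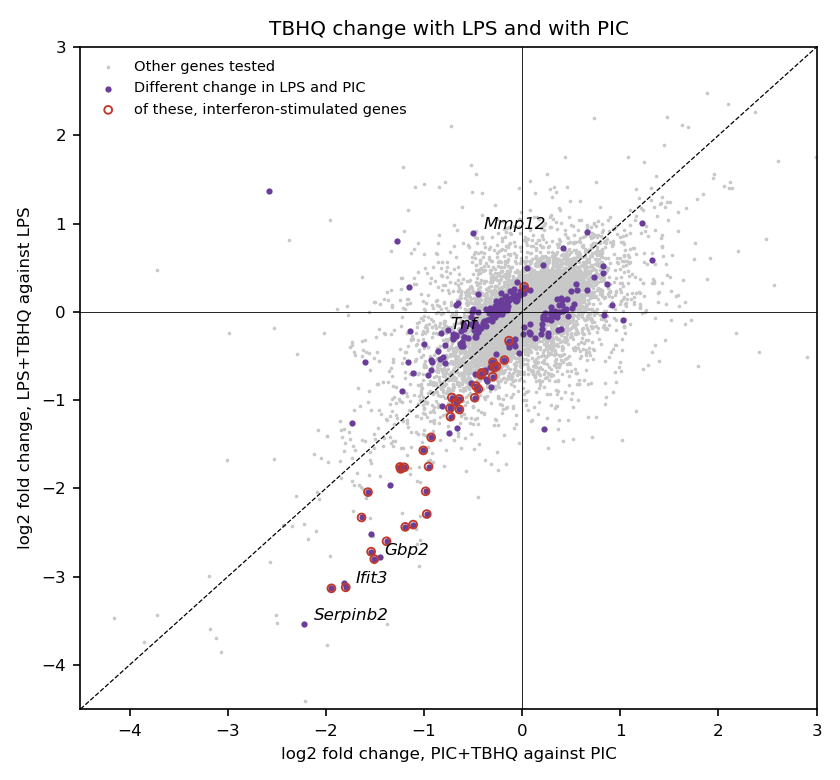
Log2 fold change after TBHQ with LPS over that with PIC for genes tested (grey), with genes of a called difference in purple, interferon-stimulated ones among them ringed in red, and a dashed line of equal change. The ringed genes other than Ifi27 lie below the line, and 2 genes fall outside the axes.

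Promoters were read from RefSeq (build GRCm38.p6), from 250 bases before to 50 after the start of 9560 of the genes tested, matched by symbol. The interferon response element GAAANNGAA, searched on both strands, was present in 12.9% of genes lower with TBHQ before LPS, 5.17% of genes higher, 7.37% of all genes tested and 8.57% of the 27025 promoters listed. Of the 67 interferon-stimulated genes matched, 40 (59.7%) had it. The antioxidant response element core TGACNNNGC was in 14.9% of genes higher, 15.9% of genes lower, 14.96% of genes tested and 12.5% of all promoters. It was in 3 of 9 matched genes of cystine uptake and glutathione synthesis, 5 of 24 of the thioredoxin and peroxiredoxin list, 2 of 22 of the detoxification list and 2 of 17 of the pentose phosphate list. The NF-kB consensus was in 7.77% of genes lower, 4.86% of genes higher, 4.86% of genes tested and 4.35% of all promoters. For the amino acid response element TGATGNAAN the shares were 3.27%, 2.27%, 2.33% and 4.04% in the same order. A match describes the letters in the window and nothing about binding.

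Interferon-stimulated genes named above with more than 1 match before their start are shown so that the spacing of the copies can be seen, 5′ to 3′ on the gene's strand with matches to GAAANNGAA or its reverse complement in capitals. They lie at chr19:34583334-34583475 (Ifit3, plus strand), chr4:156200819-156200936 (Isg15, minus), chr3:142559960-142560043 (Gbp3, plus) and chr8:71537523-71537642 (Bst2, minus) of GRCm38.p6.
Ifit3: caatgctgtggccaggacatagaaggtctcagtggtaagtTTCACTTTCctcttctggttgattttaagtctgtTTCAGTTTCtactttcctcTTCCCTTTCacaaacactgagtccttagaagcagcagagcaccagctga
Isg15: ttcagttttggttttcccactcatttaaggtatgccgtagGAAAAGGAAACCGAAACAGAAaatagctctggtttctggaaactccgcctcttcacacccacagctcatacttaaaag
Gbp3: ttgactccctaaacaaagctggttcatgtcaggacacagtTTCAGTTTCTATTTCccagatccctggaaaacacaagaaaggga
Bst2: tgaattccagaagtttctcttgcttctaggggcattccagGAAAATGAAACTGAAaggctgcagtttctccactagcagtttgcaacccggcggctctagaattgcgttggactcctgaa

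From the antioxidant and NADPH lists, Gclm, Prdx1 and G6pdx, which rose, are shown with the match to TGACNNNGC or its reverse complement in capitals, at chr3:122245383-122245502 (plus strand), chr4:116685426-116685545 (plus) and chrX:74428881-74428977 (minus). A match was also present in named genes that fell, among them Cxcl10, Rsad2 and Lif, and absent from Slc7a11, which rose.
Gclm: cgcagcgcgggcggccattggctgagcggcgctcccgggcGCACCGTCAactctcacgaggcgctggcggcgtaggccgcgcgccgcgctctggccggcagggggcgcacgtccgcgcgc
Prdx1: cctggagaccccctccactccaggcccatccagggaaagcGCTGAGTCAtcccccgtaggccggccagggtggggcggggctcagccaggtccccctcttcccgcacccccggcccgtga
G6pdx: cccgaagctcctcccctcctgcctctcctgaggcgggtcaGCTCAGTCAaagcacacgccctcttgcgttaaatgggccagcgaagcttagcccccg

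Some of these genes share 50-base stretches with other annotated transcripts, and how the counting treated such reads is not stated, so their values are less certain. The shared part of the transcript sequence was 51.2% for Ifit3 (with Ifit3b), 53.5% for H2-T22, 76.7% for Fen1, 58.4% for Ftl1, 53.9% for Pgk1, 50.9% for Mif, 51.1% for mt-Co1, 47.2% for Bnip3, 34.7% for Gpx4 and 32.4% for Ctsd, and it was 27.4% for Rpl38, 26.1% for Cycs and 25.8% for Pkm.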

How the data were processed

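The authors deposited a count per gene and library, which was used for all tests. They also deposited FPKM, which is printed as the level of a gene, and gene lengths, which entered no test. FPKM recomputed from counts, lengths and library totals differed from the deposited values by a factor constant within a library, 0.943 to 1.12 over the 18, whose origin is not stated. The submitters' processing notes name HISAT2 2.0.5, StringTie 1.3.3b and featureCounts 1.5.0-p3 and the build as GRCm38/mm39. Per those notes reads were paired-end from poly(A)-selected RNA, and the study's methods call the libraries strand-specific. Whether counting used strand is not stated, so how reads were assigned where genes overlap on opposite strands is unknown. Counts of all 18 libraries were filtered (filterByExpr), scaled (TMM) and fitted with 1 coefficient per condition in edgeR (4.0.16, R 4.3.3). Each adjusted p comes from glmQLFTest of edgeR, the quasi-likelihood test, adjusted by Benjamini-Hochberg over 13691 genes, and a gene was called below 0.05. Standard errors are from log2 CPM. DESeq2 (1.42.0), the study's tool, and limma (3.58.1) served as alternatives. Replicates were treated as independent.

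The 36 gene lists, the cell type markers, the motifs and the rule for naming genes were chosen with earlier results of these data known. The rule took the 15 highest and 15 lowest log2 fold changes with an adjusted p below 0.01, a mean of at least 50 counts and no overlap, in each list the 4 called members of largest change per direction and the 2 of highest FPKM, all members of lists with at most 14 tested, and genes the paper names. Rsad2, Isg15 and Slfn4 lie outside it and were chosen after their values were seen, as were the promoters printed. Not every gene the rule took is named. Genes whose call was lost when 1 library was left out, mt-Co3 excepted, were dropped from the text after that was seen, so the named genes are steadier than the rule's. Transcript sequences for shared 50-base stretches were from GENCODE M21, read with Python 3.11.15, and plots were made with matplotlib 3.10.9.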

Additional observations from a re-analysis of the deposited data

Results flagged for a closer look

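Genes named in the report are given here where the test of the difference between the TBHQ change with LPS and the TBHQ change with PIC had an adjusted p below 0.05 (edgeR's quasi-likelihood test, Benjamini-Hochberg adjustment over all genes tested). The values are the log2 fold change with LPS minus that with PIC. The change with LPS was the more negative by -1.32 for Ifit3, -1.31 for Serpinb2, -1.30 for Oasl2, -1.29 for Gbp2, -1.24 for Gbp3, -1.19 for Gbp5, -1.18 for Isg20, -0.69 for Rsad2 and -0.63 for Irf7. Smaller differences of that sign were -0.62 for Ccl5, -0.56 for Slfn4, -0.46 for Isg15, -0.43 for Bst2, -0.31 for Keap1, -0.30 for Cyba, -0.28 for Stat2 and -0.26 for Cd74. It was the more positive by 1.39 for Mmp12, 0.58 for Tnf, 0.47 for Egr1, 0.41 for Nlrp3, 0.40 for Csf3, 0.38 for Nfkbiz, 0.32 for Mki67 and 0.31 for Slc7a11. Smaller positive differences were 0.30 for Tnfaip3, 0.30 for Tiparp, 0.27 for Nfkbia, 0.26 for Ifi27, 0.24 for Zfp36, 0.24 for Prdx1, 0.22 for Nfkb1 and 0.21 for Atf3. No cause was tested.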

How the results depend on the processing

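The counts of called genes in the LPS comparison (1601 higher, 1673 lower) lay within 1.5 times of these under DESeq2, edgeR on the 6 libraries, RLE factors, total library size, no count filter, a mean of at least 50 counts, and the FPKM fits. With the replicate number as a replicate block they were 1624 and 1692, and the count of different changes with LPS and PIC was 274. Leaving out each LPS or LPS+TBHQ library gave 1231 to 1584 higher and 1368 to 1535 lower, and leaving out each library of the 4 groups gave 160 to 354 different changes. For TBHQ alone, whose alternatives were chosen after seeing the data, 1539 to 1716 higher and 1672 to 1772 lower were called without each control or TBHQ library. The 251 different changes became 380 with no count filter and 150 with log2(FPKM + 1) over all genes with an FPKM, and the cause was not tested. Stricter thresholds lower counts by construction. At an adjusted p below 0.01 there were 1045 higher, 1133 lower, 115 different changes, and 1295 higher and 1405 lower with TBHQ alone. With an adjusted p below 0.05 and a size above 1 log2 unit the counts were 45 higher, 209 lower, 19 different, and 106 higher and 167 lower with TBHQ alone. With an adjusted p below 0.01 and a size above 2 they were 5 higher, 48 lower, and 11 higher and 15 lower with TBHQ alone, and edgeR called 0 different changes (1940 genes had an unadjusted p below 0.05). Of 157 genes named, none changed sign while called. Genes whose call was lost without 1 library, mt-Co3 excepted, had been dropped, so this steadiness is partly set by selection. The call of mt-Co3 was lost in 4 of 6 fits without a library, with DESeq2 and with each FPKM fit, that of Csf3 with DESeq2 and each FPKM fit, and those of Fth1, Lyz2, Mif, Plau, Rpl38, Spp1 and Sqstm1 with log2(FPKM + 1) over all genes. No value could be had for 9 combinations of gene and setting. Of 72 list counts, 0 to 14 per setting other than thresholds and left-out libraries moved beyond 1.5 times. Residuals of same-numbered LPS and LPS+TBHQ libraries correlated across genes at 0.000393, -0.00573 and 0.0645. Those of differently numbered libraries lay between -0.0518 and 0.0510. With 3 libraries per group these values cannot tell whether the numbers pair libraries. Depth limits genes of few counts, such as Nqo1.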
